A study of Mus musculus with 12 samples.

Results

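The effect of dantrolene on the pressure-overloaded left ventricle was read from 6 of the 12 libraries of the study, 3 from TAC dantrolene mice and 3 from TAC control mice, across all expressed genes. The members were taken by their labelled group and by no measured value. TAC is transverse aortic constriction, in which a clip narrows the aortic arch, and sham mice had the operation without the clip. The 12 animals, all male C57BL/6 mice, had surgery when 8 weeks old, and their hearts were taken when they were 12 weeks old. TAC dantrolene mice received dantrolene by mouth at 30 mg/kg/day for 4 weeks and are compared with TAC control mice. What the control mice were given in its place is not stated in the labels. Sham dantrolene mice, which received the same dose, and sham control mice, 3 of each, enter the fit and are quoted where their level bears on a value. Each library is the left ventricle of 1 mouse, so the replicates are separate animals.

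Pressure overload makes ventricular muscle cells grow, switches on genes of the fetal heart and activates fibroblasts, which lay down matrix. Contraction is triggered by calcium that leaves the sarcoplasmic reticulum through the ryanodine receptor Ryr2, and calcium leaking through the same channel is known from failing hearts. Dantrolene binds ryanodine receptors and lowers calcium release, and it is the drug used against malignant hyperthermia. The title of the study links an inhibitor of Ryr2 with hypertrophy and with signalling by TNF, NF-kappaB and the NLRP3 inflammasome, a cytosolic complex that activates caspase-1.

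Poly(A) RNA was counted as whole reads per gene, and the TAC libraries held 28422879 to 38363106 counted reads. Of 25319 genes in the table, 14965 had enough reads to be tested. Values below are CPM, the reads of a gene relative to all reads of its library, scaled for library composition, and are given for mouse 1, 2 and 3 of each group in that order. The defining transcripts of ventricular muscle were abundant in all 6 libraries, Myl2 at 7669 to 22618 CPM and Tnni3 at 6790 to 14125 CPM. Of the skeletal muscle markers, the myosins Myh1, Myh2 and Myh4 had 0 to 5 reads in any TAC library and Mylpf had 0.72 to 1.82 CPM, while Ckm and Acta1, which the heart also expresses, brought the sum of the tested markers to 3654 to 12327 CPM. Of the atrial markers, Sln had 0 to 37 reads, Myl7 0.063 to 1.90 CPM and Myl4 1.72 to 9.80 CPM, and their tested sum of 152 to 2061 CPM was mostly Nppa and Stard10. Stard10 was high in the mice numbered 1, at 193, 65.1 and 35.7 CPM in TAC dantrolene hearts, against 215, 51.3 and 34.5 CPM in TAC control hearts.

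Mouse 1 of both TAC groups stood apart from the other mice. TAC dantrolene 1 and TAC control 1 had the lowest composition scaling factors of the 12 libraries, 0.705 and 0.742. They also had the fewest genes with reads, 17711 and 17899, against 19071 to 19601 in the other TAC libraries. The part of library quality in their values was not tested. On the first principal component, which held 41.7% of the variance over the 12 libraries, TAC dantrolene 1 lay at 76.5 and TAC control 1 at 85.6, while the other 4 TAC libraries lay between -50.7 and -22.7. Sham dantrolene 3 at 77.9 and sham control 3 at 34.7 lay on the same side. Each result is therefore given with these 4 libraries and, where it matters, without them, which leaves 2 TAC dantrolene and 2 TAC control mice. Same-numbered TAC mice also deviated together from their group means, so ratios within pairs 1, 2 and 3 are quoted too. The labels state no such pairing. The share of reads from mitochondrially encoded genes was 8.02%, 1.71% and 16.8% in TAC dantrolene mice and 10.5%, 15.6% and 22.4% in TAC control mice.

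Across the whole table the difference between TAC dantrolene and TAC control hearts was small against the spread between mice. edgeR's quasi-likelihood test called 0 of 14965 genes (0%) at an adjusted p under 0.05. At an unadjusted p under 0.05 it found 486 genes (3.25%), 266 higher (1.78%) and 220 lower (1.47%) in TAC dantrolene hearts. DESeq2 called 11 of 14827 genes (0.0742%), 2 higher (0.0135%) and 9 lower (0.0607%), and limma with sample weights called 123 (0.822%), 62 higher and 61 lower. The limma weight was 6.56 for TAC control 2 and 0.18 to 0.84 for the other TAC libraries, so its control side rested mostly on that mouse. With the replicate number as a block the adjusted calls stayed at 0, while the unadjusted count was 979 in the 6 TAC libraries (6.74%; 2.91% higher and 3.83% lower) and 1826 in all 12. Without the 4 libraries that stood apart, edgeR called 478 of 15069 genes (3.17%), 248 higher (1.65%) and 230 lower (1.53%). Of the 11 genes called by DESeq2, 9 were among those 478. The 3 values of one TAC group did not overlap the 3 of the other in 712 genes (4.76%), 401 higher (2.68%) and 311 lower (2.08%). Below, the unadjusted threshold is an edgeR p under 0.05 before adjustment, which no gene passed after adjustment. List counts at this threshold stand beside the shares over all genes, 1.78% higher and 1.47% lower.

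**Figure D1:**
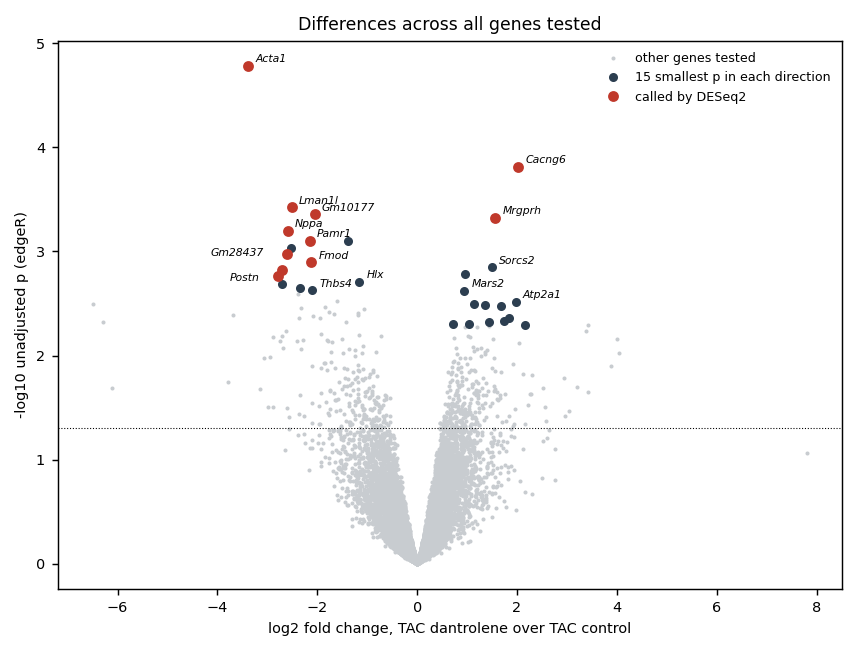
Log2 fold change of TAC dantrolene over TAC control (x) against -log10 of the unadjusted edgeR p (y) for the genes tested, with 1 point per gene and the dotted line at an unadjusted threshold of 0.05. The 11 genes called by DESeq2 are red, 9 on the left and 2 on the right, with Acta1 at the top at a log2 fold change of -3.39.

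The gene with the smallest p was Acta1, the skeletal alpha-actin that the adult mouse ventricle keeps low and that rises under load. It had 230, 312 and 146 CPM in TAC dantrolene hearts, against 887, 3708 and 2614 CPM in TAC control hearts. Every dantrolene-treated mouse lay below every TAC control mouse. Sham dantrolene hearts held 232 to 343 CPM and sham control hearts 267 to 314 CPM, so treated TAC mice 1 and 3 lay below the sham range and mouse 2 within it. The log2 fold change was -3.39 ± 0.50 (SE). Its adjusted p was 0.245 in edgeR and 4.88e-09 in DESeq2, and over all settings tried the adjusted p ran from 4.88e-09 to 1.00. Acta1 was the 1 gene that edgeR called when TAC control 1 was left out (adjusted p = 0.00833), and the 1 it called without a filter on low counts (adjusted p = 0.00291). Reads in the 6 libraries ranged from 4675 to 139231, so counting noise is small beside the spread between mice. Acta1 lies on the minus strand of chromosome 8 at 123891769 to 123894751 (GRCm38).

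Nppa, which encodes atrial natriuretic peptide, had the same order. It was at 265, 363 and 112 CPM in TAC dantrolene hearts, against 531, 1926 and 2015 CPM in TAC control hearts, again without overlap. Sham dantrolene hearts had 267 to 348 CPM and sham control hearts 196 to 477 CPM. The log2 fold change was -2.60 ± 0.57 (SE, adjusted p = 0.00977 in DESeq2). Nppa spans 148000722 to 148002079 on the plus strand of chromosome 4, and the antisense gene Gm13054 (148001091 to 148004014, minus strand) overlaps it. Gm13054 had 27.3, 38.8 and 9.80 CPM in TAC dantrolene hearts against 54.0, 163 and 170 CPM in TAC control hearts. No source used here gives the strand setting of the counts, so the reads of these genes cannot be told apart with certainty.

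The 250 bases before the RefSeq start of both genes are printed because Acta1 and Nppa led the loaded-heart genes, and a CArG box (the site of serum response factor) and a TATA box (TATAAA) were searched on both strands. Capitals mark matches. A CArG box is found in 1.47% and TATAAA in 12.4% of 32851 mouse promoter windows of this length in the same RefSeq table (GRCm38.p6).
Acta1, chr8:123894776-123895025, minus strand: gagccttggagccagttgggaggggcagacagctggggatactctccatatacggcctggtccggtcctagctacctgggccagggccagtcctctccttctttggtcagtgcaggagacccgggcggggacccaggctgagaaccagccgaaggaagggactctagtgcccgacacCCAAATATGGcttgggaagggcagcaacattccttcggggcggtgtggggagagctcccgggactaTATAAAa
Nppa, chr4:148000472-148000721, plus strand: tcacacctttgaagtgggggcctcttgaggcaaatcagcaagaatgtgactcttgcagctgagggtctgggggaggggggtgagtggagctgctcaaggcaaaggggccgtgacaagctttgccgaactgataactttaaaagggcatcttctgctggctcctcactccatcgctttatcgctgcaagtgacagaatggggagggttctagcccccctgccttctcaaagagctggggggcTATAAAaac
The Acta1 window holds a CArG box that begins 73 bases before the RefSeq start and a TATA box that begins 7 bases before it. The GENCODE start of Acta1 given above lies further downstream, so distances from that start are larger. The Nppa window holds a TATA box 9 bases before the start and no CArG match in these letters.

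**Figure D2:**
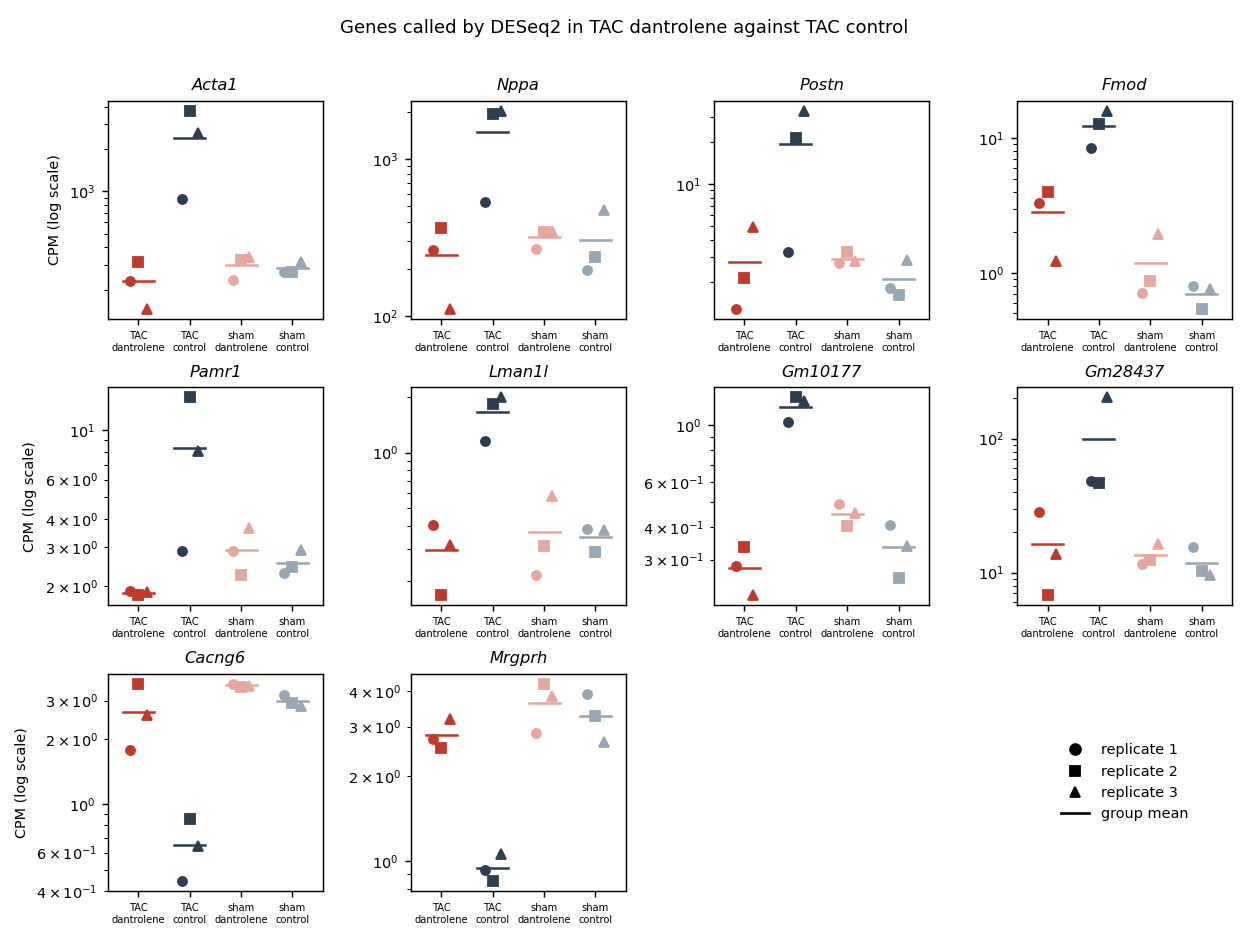
CPM per mouse on a log axis for 10 of the 11 genes called by DESeq2, with TAC dantrolene left of TAC control and the sham groups to the right. Symbols mark the replicate number and lines the group means. The 3 TAC dantrolene mice lie below the 3 TAC control mice in 7 of the 8 lower genes shown and above them in both higher genes, while Postn overlaps through TAC control 1. The genes were chosen by a test of these same values, so the separation is a description.

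The other genes described here that DESeq2 called lower were 2 of secreted matrix proteins, 1 of a secreted protease-like protein, 1 of a lectin and 2 pseudogenes. Fmod, fibromodulin, a small leucine-rich proteoglycan that binds collagen fibrils, had 3.32, 3.98 and 1.22 CPM in TAC dantrolene hearts, against 8.48, 12.7 and 15.9 CPM in TAC control hearts. Its groups did not overlap, and the log2 fold change was -2.12 ± 0.51 (SE, adjusted p = 0.0374 in DESeq2). Treated TAC hearts stayed above sham control hearts, which had 0.541 to 0.791 CPM. Postn, periostin, the matricellular protein of activated fibroblasts, had 1.30, 2.12 and 4.92 CPM in TAC dantrolene hearts against 3.29, 21.2 and 32.9 CPM in TAC control hearts. The groups overlapped because TAC control 1 lay within the range of treated mice (log2 fold change -2.78 ± 0.70, SE, adjusted p = 0.0252 in DESeq2).

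Pamr1, a peptidase-domain protein named for regenerating muscle, had 1.90, 1.83 and 1.88 CPM in TAC dantrolene hearts against 2.89, 14.0 and 8.08 CPM in TAC control hearts, without overlap. Treated hearts were tightly grouped and control hearts were not. Lman1l, a lectin-like gene, had 0.405, 0.168 and 0.313 CPM in TAC dantrolene hearts against 1.15, 1.84 and 2.00 CPM in TAC control hearts, from 8 to 69 reads per library. The processed pseudogene Gm10177 averaged 0.280 ± 0.059 CPM in TAC dantrolene hearts against 1.18 ± 0.14 CPM in TAC control hearts (SD, n = 3 each). Gm28437, an unprocessed pseudogene on chromosome 1, had 28.3, 6.82 and 13.7 CPM in TAC dantrolene hearts against 48.2, 46.7 and 203 CPM in TAC control hearts. Reads of pseudogenes can come from their parent genes, so both are uncertain.

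Among the 15 lower genes with the smallest p, the others described were Mgat5b, Hlx, 1500015O10Rik and Thbs4. Hlx, a homeobox transcription factor, differed from the others in its place against sham hearts. It had 11, 8.96 and 6.11 CPM in treated TAC hearts and 13.4, 26.1 and 18.8 CPM in TAC control hearts, while the 6 sham hearts had 18.6 to 24.7 CPM. Mgat5b, a glycosyltransferase, averaged 0.169 ± 0.029 CPM in TAC dantrolene hearts against 0.967 ± 0.651 CPM in TAC control hearts, and 1500015O10Rik averaged 0.257 ± 0.131 CPM in TAC dantrolene hearts against 1.67 ± 0.61 CPM in TAC control hearts (SD, n = 3 each).

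Of the higher genes, DESeq2 called Cacng6 and Mrgprh. Cacng6 encodes a gamma subunit of voltage-gated calcium channels. It had 1.78, 3.6 and 2.57 CPM in TAC dantrolene hearts, against 0.444, 0.852 and 0.647 CPM in TAC control hearts, with the sham hearts at 2.83 to 3.58 CPM. The log2 ratio was 1.86, 2.00 and 1.89 in pairs 1, 2 and 3, so pair 1 did not stand apart here. The log2 fold change was 2.02 ± 0.38 (SE, adjusted p = 0.00312 in DESeq2). Mrgprh, an orphan Mas-related G protein-coupled receptor, had 2.71, 2.52 and 3.19 CPM in TAC dantrolene hearts against 0.933, 0.852 and 1.06 CPM in TAC control hearts, with pair ratios of 1.48, 1.50 and 1.54 on the log2 scale. Sham hearts had 2.65 to 4.26 CPM (adjusted p = 0.0238 in DESeq2). Both genes rest on modest counts, from 10 to 171 reads for Cacng6 and from 21 to 120 for Mrgprh.

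The other 13 of the 15 higher genes with the smallest p had log2 fold changes of 0.71 (Cacfd1) to 2.16 (E030044B06Rik). Sorcs2, a sorting receptor of the sortilin family, had 11.4, 23.1 and 17.8 CPM in TAC dantrolene hearts, against 5.82, 6.76 and 5.88 CPM in TAC control hearts (log2 fold change 1.50 ± 0.37, SE). In sham hearts it ran the other way, with 8.76 to 22.1 CPM with the drug against 21.4 to 32.5 CPM without it, and the interaction of drug and surgery was 2.48 on the log2 scale, with an adjusted p above the threshold in edgeR. Mars2, the mitochondrial methionyl-tRNA synthetase, was nearly uniform within each group, at 10.6, 11.8 and 11.5 CPM in TAC dantrolene hearts against 6.04, 6.15 and 5.5 CPM in TAC control hearts. Itgb6, the beta-6 integrin chain, had 3.81, 10.01 and 7.33 CPM in TAC dantrolene hearts against 2.80, 2.77 and 2.70 CPM in TAC control hearts, and 2 of the 3 treated hearts were above all 6 sham hearts, which had 2.55 to 4.71 CPM. Atp2a1, the calcium pump of fast skeletal muscle, had 0.648, 1.58 and 2.16 CPM in TAC dantrolene hearts against 0.266, 0.479 and 0.353 CPM in TAC control hearts from 6 to 75 reads. Klhl38, 9030617O03Rik, Armc2, Clec18a, Gm6086, Sv2a and Plekhf1 made up the rest. Klhl38 was the only one of these 13 whose groups overlapped, while 2.68% of all genes were higher without overlap. The 13 were chosen by p from the same values, so their separation is a description and adds no evidence.

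No gene passed the test that asks whether dantrolene acted differently in TAC and in sham hearts (0 of 14965, 0%), and 422 had an unadjusted p under 0.05 (2.82%; 1.55% higher and 1.27% lower). Acta1 had an interaction of -3.47 on the log2 scale, since its log2 fold change for the drug was 0.08 in sham hearts. For Nppa the values were -2.67 and 0.07, and for Cacng6 they were 1.78 and 0.24. This contrast shares its TAC libraries with the drug comparison.

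The wider list of the fetal and hypertrophy programme did not move as a group. Of 20 genes tested, 9 were higher and 11 lower. The median log2 fold change of the list was -0.11 (0.018 without TAC control 3), beside 0.02 over all genes. At an unadjusted p under 0.05, 4 were lower and 0 higher, against 1.47% and 1.78% of all genes. The 4 lower genes were Acta1, Nppa, Ankrd1, a stretch-responsive cardiac repressor, and Xirp2, an actin-binding protein of cell junctions. Ankrd1 had 111, 135 and 216 CPM in TAC dantrolene hearts, against 104, 560 and 876 CPM in TAC control hearts. Mouse 1 of the control group was the lowest of the 6, and pairs 2 and 3 carried the difference (log2 fold change -1.74 ± 0.56, SE). Xirp2 had 27.2, 19.0 and 39.1 CPM in TAC dantrolene hearts against 17.5, 93.5 and 120 CPM in TAC control hearts, with the same low control mouse.

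Nppb and Myh7, also well-known members of the programme, did not share the difference seen in Acta1 and Nppa. Nppb, brain natriuretic peptide, had 2135, 790 and 164 CPM in TAC dantrolene hearts, against 1357, 1585 and 900 CPM in TAC control hearts, and the highest and the lowest of the 6 values were both treated mice (log2 fold change -0.31 ± 0.63, SE). Myh7, the slow myosin heavy chain of the loaded mouse ventricle, had 24.4, 197 and 70.6 CPM in TAC dantrolene hearts against 53.1, 64.9 and 167 CPM in TAC control hearts (log2 fold change 0.04 ± 0.76, SE). Myh6, the adult fast myosin, belongs to the adult sarcomere list and not to this programme. It had 3152, 18872 and 14696 CPM in TAC dantrolene hearts against 3714, 6825 and 5664 CPM in TAC control hearts. In mice 2 and 3 the treated hearts were above all TAC controls, and mouse 1 was low in both groups (log2 fold change 1.18 ± 0.59, SE). Without the 4 libraries the Myh6 difference was 1.42 with an edgeR adjusted p of 0.0207.

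Adult sarcomere genes were split by role. The median log2 fold change was 0.32 over 7 thick filament genes, 0.14 over 7 thin filament genes and -0.26 over 6 Z-disc genes, with 2 members lower at an unadjusted p under 0.05, both of the Z-disc. Myoz2, a Z-disc protein that binds calcineurin, had 977, 854 and 948 CPM in TAC dantrolene hearts, against 1017, 1773 and 1926 CPM in TAC control hearts, and the groups did not overlap (log2 fold change -0.76 ± 0.32, SE). Cryab, the small heat shock protein that guards desmin, had 2288, 1821 and 1885 CPM in TAC dantrolene hearts against 2597, 3602 and 3045 CPM in TAC control hearts (log2 fold change -0.62 ± 0.28, SE). The calcineurin, NFAT and MEF2 list, the calcium-driven route to hypertrophy, had 14 of 18 genes higher, a median of 0.35, and only Myoz2 under the unadjusted threshold. That median was -0.013 without TAC dantrolene 3 and -0.01 within pair 1.

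Genes of the extracellular matrix were mostly lower. Among 42 proteoglycans and glycoproteins tested, 34 were lower and 8 higher in TAC dantrolene hearts, against 48.2% lower over all genes. The unadjusted test found 14 lower (33.3% of the list, 1.47% of all genes) and 1 higher, and DESeq2 called Fmod and Postn. The median log2 fold change was -0.53 with 12 libraries and -0.65 without the 4, where 13 were called lower after adjustment. The list was written with earlier results on some of these genes known, so its counts are a description.

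Matricellular proteins, which signal to cells rather than bear load, held large differences in both directions. Thbs4, thrombospondin 4, had 12.9, 4.29 and 6.17 CPM in TAC dantrolene hearts, against 12.0, 45.2 and 42.8 CPM in TAC control hearts. Cilp, cartilage intermediate layer protein, had 4.13, 9.83 and 14.3 CPM in TAC dantrolene hearts against 9.50, 69.3 and 69.3 CPM in TAC control hearts. In both genes TAC control 1 lay among the treated mice and the other 2 controls far above them. The log2 fold changes were -2.10 ± 0.55 for Thbs4 and -2.39 ± 0.63 for Cilp (SE), and -3.07 and -2.51 without the 4 libraries. Of 15 matricellular genes, 12 were lower and 7 of them had an unadjusted p under 0.05, against 1 higher. The higher one was Thbs1, thrombospondin 1, with 3.32, 158 and 14.2 CPM in TAC dantrolene hearts, against 3.95, 5.57 and 9.64 CPM in TAC control hearts. TAC dantrolene 2 was far above the other 5 hearts; the log2 fold change was 3.20 ± 1.20 (SE), and the lowest with 1 TAC library left out was 0.46.

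Small leucine-rich proteoglycans, which coat collagen fibrils, had a median of -1.02 over 8 genes, 7 of them lower. Bgn, biglycan, had 261, 152 and 224 CPM in TAC dantrolene hearts, against 292, 659 and 499 CPM in TAC control hearts, without overlap (log2 fold change -1.19 ± 0.34, SE). Of the elastic fibre genes, Mfap4, a microfibril-associated protein, had 20.9, 10.6 and 21.6 CPM in TAC dantrolene hearts against 27.2, 72.9 and 61.3 CPM in TAC control hearts, and 10 of 12 such genes were lower.

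Collagen chains were lower in 20 of 24 genes, by a median of -0.40. At an unadjusted p under 0.05, 4 were lower and 0 higher, against 1.47% and 1.78% of all genes. All 7 fibrillar chains were lower, by -0.14 to -0.91. Col1a1, a chain of the main fibril collagen, had 41.4, 86.2 and 61.5 CPM in TAC dantrolene hearts, against 47.5, 171 and 138 CPM in TAC control hearts (log2 fold change -0.91 ± 0.40, SE). Col3a1, of the finer fibrils, had 107, 118 and 87.1 CPM in TAC dantrolene hearts against 89.7, 213 and 250 CPM in TAC control hearts (log2 fold change -0.82 ± 0.36, SE). Mouse 1 of the control group was below or near the treated mice in both. Col12a1, a fibril-associated chain, did separate all mice, at 0.202, 0.694 and 0.971 CPM in TAC dantrolene hearts against 1.15, 3.57 and 2.59 CPM in TAC control hearts (log2 fold change -1.95 ± 0.56, SE).

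All 14 tested enzymes of collagen crosslinking and hydroxylation were lower, with a median of -0.43 and 4 at an unadjusted p under 0.05. P4ha1, a prolyl hydroxylase subunit needed for a stable triple helix, had 17.6, 22.6 and 23.1 CPM in TAC dantrolene hearts, against 22.0, 60.7 and 44.4 CPM in TAC control hearts (log2 fold change -1.01 ± 0.38, SE). Timp1, the metalloproteinase inhibitor induced in injured tissue, had 4.70, 2.82 and 1.19 CPM in TAC dantrolene hearts against 5.73, 7.19 and 9.38 CPM in TAC control hearts, without overlap (log2 fold change -1.36 ± 0.55, SE). The metalloproteinases themselves were mixed, with 4 of 11 higher and a median of -0.13.

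Profibrotic signalling differed among its layers. The 6 TGF-beta family ligands tested had 0 members under the unadjusted threshold, and the 10 receptors and Smads had 2 higher and 1 lower. Smad3, which carries the TGF-beta signal to the nucleus, was higher, at 13.3, 19.1 and 15 CPM in TAC dantrolene hearts, against 11.4, 8.33 and 7.32 CPM in TAC control hearts, without overlap (log2 fold change 0.81 ± 0.32, SE). Latency proteins and secreted modulators were lower in 10 of 12 genes, by a median of -0.66. Wisp2, a secreted CCN-family protein, had 13.0, 16.7 and 13.5 CPM in TAC dantrolene hearts against 15.5, 72.2 and 58.9 CPM in TAC control hearts (log2 fold change -1.76 ± 0.50, SE). Sfrp2, a secreted Wnt modulator, had 2.43, 2.10 and 1.41 CPM in TAC dantrolene hearts against 1.95, 6.20 and 11.3 CPM in TAC control hearts (log2 fold change -1.71 ± 0.54, SE).

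Fibroblast markers moved beside these genes. The 12 markers of activated fibroblasts had a median of -1.66, with 11 lower. At an unadjusted p under 0.05, 8 were lower, against 1.47% of all genes. The summed level of the 12 markers was 296 to 375 CPM in TAC dantrolene hearts and 323 to 556 CPM in TAC control hearts. Most of these markers also belong to the matrix, TGF-beta or hypertrophy lists, and Cthrc1 and Ddah1 are the exceptions. Comp, a cartilage matrix protein in this set, had 7.77, 6.21 and 2.57 CPM in TAC dantrolene hearts against 4.40, 33.5 and 46.7 CPM in TAC control hearts. Markers of fibroblasts at large were lower in 7 of 8 genes, by a median of -0.74, with a summed level of 2693 to 3165 CPM in TAC dantrolene hearts against 2390 to 5282 CPM in TAC control hearts. In bulk tissue, fewer cells of a type and less RNA per cell cannot be told apart.

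As lists, matrix genes and fibroblast markers differed mainly in pairs 2 and 3. The median log2 ratio of the activated fibroblast markers was 0.13 in pair 1, -2.11 in pair 2 and -2.18 in pair 3, and that of the proteoglycans and glycoproteins was -0.01, -0.84 and -0.77. Single genes differed in pair 1 too, where the log2 ratio was -1.34 for Fmod, -1.30 for Postn, -1.19 for Cilp and -2.20 for Col12a1, and the 3 fibril-associated collagens had a median of -0.75 there, against -0.29 and -0.45 in pairs 2 and 3. TAC control 1 was also among the libraries that stood apart, so a low matrix response in that mouse and its place in the data cannot be told apart.

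**Figure D3:**
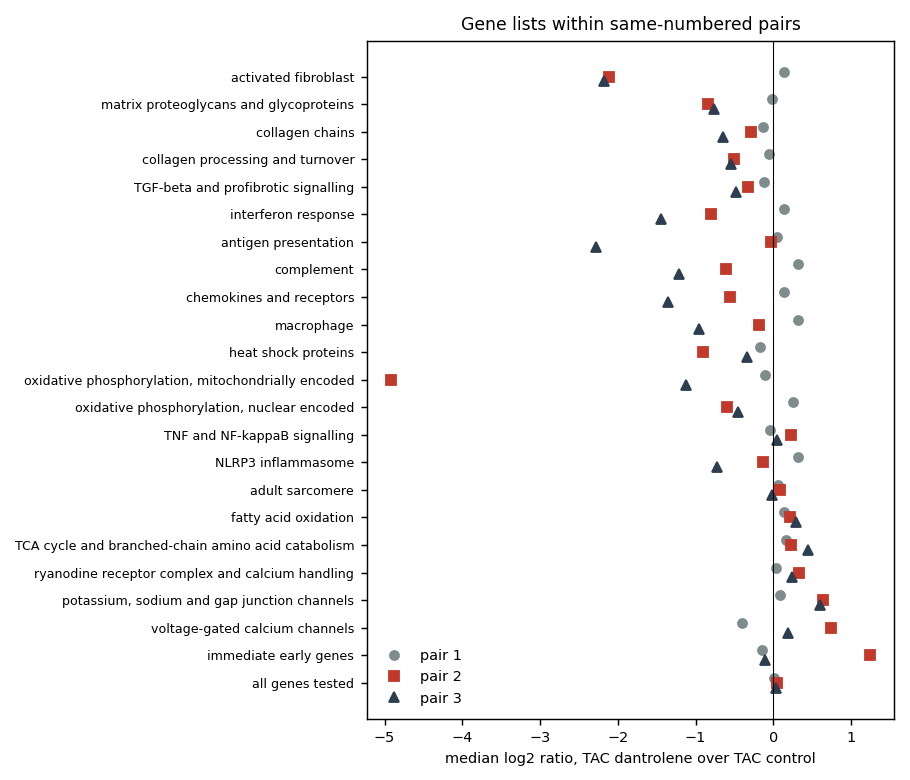
Median log2 ratio of the members of 22 gene lists and of all genes tested, TAC dantrolene mouse over the TAC control mouse of the same number, with 1 symbol per pair and 0 as the vertical line. Pair 1 lies within 0.41 of 0 in every list shown, while pairs 2 and 3 lie at -2.11 and -2.18 for activated fibroblast markers.

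Interferon-stimulated genes, which restrict viruses and intracellular pathogens, were lower in 36 of 38 tested genes, by a median of -0.70. At an unadjusted p under 0.05, 7 were lower and 0 higher, against 1.47% and 1.78% of all genes. DESeq2 called 0 of the 38, and without the 4 libraries edgeR called 10 lower, against 1.53% of all genes. The list held 2 different patterns. Antiviral effectors were lower in both pairs 2 and 3: their median log2 ratio was 0.20, -0.97 and -1.60 in pairs 1, 2 and 3. Ifit3, an interferon-induced antiviral protein, had 3.40, 3.85 and 6.58 CPM in TAC dantrolene hearts, against 5.55, 13.4 and 18.1 CPM in TAC control hearts, and only TAC control 1 overlapped the treated mice (log2 fold change -1.42 ± 0.41, SE). Oasl2, an oligoadenylate synthetase-like protein, had 6.68, 5.07 and 4.38 CPM in TAC dantrolene hearts against 7.24, 9.56 and 9.73 CPM in TAC control hearts, without overlap.

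The immunity-related GTPases, which interferon-gamma induces in mice, were set by TAC control 3. Igtp had 11.5, 11.6 and 13.4 CPM in TAC dantrolene hearts, against 14.3, 15.7 and 240 CPM in TAC control hearts. Irgm1 had 4.90, 7.81 and 11 CPM in TAC dantrolene hearts, against 4.40, 11.1 and 68.6 CPM in TAC control hearts. Iigp1, of the same family, had 2.19, 0.799 and 6.45 CPM in TAC dantrolene hearts, against 0.933, 2.74 and 70.6 CPM in TAC control hearts. Without TAC control 3 the log2 fold changes of Irgm1 and Iigp1 changed sign, to 0.03 and 0.76, and in the full set they are -1.83 and -2.98. In TAC control 3, 10 genes exceeded every other library of the 12 by 4-fold or more.

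Promoters of Ifit3, Igtp and Irgm1 are printed because these genes stand for the patterns of 2 mice and of 1 mouse. The interferon-stimulated response element was searched on both strands as GAAA, any 2 bases and GAAA again, and capitals mark its matches. It occurs in 2.98% of the 32851 RefSeq promoter windows of 250 bases.
Ifit3, chr19:34583279-34583528, plus strand: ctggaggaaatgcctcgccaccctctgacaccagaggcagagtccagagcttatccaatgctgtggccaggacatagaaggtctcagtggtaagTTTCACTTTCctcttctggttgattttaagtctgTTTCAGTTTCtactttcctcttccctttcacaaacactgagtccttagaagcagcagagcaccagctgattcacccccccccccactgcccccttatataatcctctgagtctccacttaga
Igtp, chr11:58199306-58199555, plus strand: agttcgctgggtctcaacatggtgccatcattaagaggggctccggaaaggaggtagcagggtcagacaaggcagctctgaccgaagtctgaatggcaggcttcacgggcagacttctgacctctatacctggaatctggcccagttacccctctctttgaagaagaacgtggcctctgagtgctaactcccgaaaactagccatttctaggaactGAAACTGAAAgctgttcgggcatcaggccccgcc
Irgm1, chr11:48871421-48871670, minus strand: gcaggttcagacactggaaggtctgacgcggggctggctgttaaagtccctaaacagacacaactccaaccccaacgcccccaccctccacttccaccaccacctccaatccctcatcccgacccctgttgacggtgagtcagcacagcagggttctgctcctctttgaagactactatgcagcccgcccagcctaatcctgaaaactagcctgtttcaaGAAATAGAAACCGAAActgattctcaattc
Ifit3 holds 2 matches, 156 and 122 bases before the start, on the opposite strand to the gene. Igtp holds 1 match at 34 bases, and Irgm1 holds 2 overlapping matches at 30 and 24 bases.

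Antigen presentation followed the second pattern, most clearly in the class II pathway. All 16 tested genes of MHC molecules and their pathways were lower in TAC dantrolene hearts, by a median of -0.88. Of the 9 in the class II pathway, 4 were lower at an unadjusted p under 0.05, against 1.47% of all genes. Cd74, the invariant chain of class II molecules, had 191, 206 and 116 CPM in TAC dantrolene hearts, against 195, 202 and 725 CPM in TAC control hearts. H2-Aa, a class II alpha chain, had 115, 77.6 and 52.7 CPM in TAC dantrolene hearts against 108, 88.0 and 384 CPM in TAC control hearts. TAC control 3 was high and the other 5 mice overlapped. The median of the list was -0.25 without TAC control 3, and pair ratios were 0.05, -0.03 and -2.28. They were 0.03, 0.03 and -2.76 for the class II pathway and 0.11, -0.37 and -1.50 for class I.

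Lymphocyte markers were at a low level and macrophage markers at a higher one. The T and NK cell markers summed to 1.53 to 3.04 CPM in TAC dantrolene hearts and 3.20 to 5.68 CPM in TAC control hearts, with 7 of 8 tested genes lower and 1 at an unadjusted p under 0.05. Nkg7, a granule protein of cytotoxic lymphocytes, had 0.243, 0.484 and 0.157 CPM in TAC dantrolene hearts against 2.13, 0.533 and 0.735 CPM in TAC control hearts. Macrophage markers summed to 212 to 680 CPM in TAC dantrolene hearts against 370 to 559 CPM in TAC control hearts, and 10 of 13 were lower, by a median of -0.25, which was 0.16 without TAC control 3 and 0.31 within pair 1. Fcgr1, a high-affinity receptor for antibodies on these cells, had 5.55, 2.21 and 2.22 CPM in TAC dantrolene hearts against 5.06, 7.91 and 8.52 CPM in TAC control hearts (log2 fold change -1.11 ± 0.45, SE). The part of any cell type in the interferon and MHC differences was not tested.

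Chemokines and complement gave few single genes. Ccl5, a T cell chemokine, had 1.13, 0.210 and 0.094 CPM in TAC dantrolene hearts, against 6.13, 1.46 and 1.76 CPM in TAC control hearts, without overlap (log2 fold change -2.74 ± 0.86, SE). Cxcl9, an interferon-gamma target, had 2.23, 1.18 and 3.95 CPM in TAC dantrolene hearts against 1.60, 5.41 and 11.7 CPM in TAC control hearts. These were the 2 of 23 chemokines and receptors under the unadjusted threshold, both lower. Complement had 11 of 13 genes lower, by a median of -0.43, with 1 under the unadjusted threshold.

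TNF and NF-kappaB signalling is named in the title of the study. Of 34 genes tested, 19 were higher and 15 lower, with a median of 0.06. None was under the unadjusted threshold, which 3.25% of all genes passed, so a count of 0 in 34 is near that share. Tnf itself was at a very low level, at 0.810, 0.863 and 0.313 CPM in TAC dantrolene hearts, against 0.844, 0.772 and 0.764 CPM in TAC control hearts. The NF-kappaB subunit Rela had 52.6, 58.2 and 30.8 CPM in TAC dantrolene hearts against 54.9, 44.3 and 34.2 CPM in TAC control hearts, and its log2 fold change was 0.09 ± 0.27 (SE). Nfkb1, the other classical subunit, had 11.7, 36.8 and 23.9 CPM in TAC dantrolene hearts against 15.1, 17.7 and 18.8 CPM in TAC control hearts. Nfkbia, the inhibitor that NF-kappaB induces as its own brake, had 11.3, 76.5 and 32.6 CPM in TAC dantrolene hearts against 22.0, 22.7 and 25.9 CPM in TAC control hearts (log2 fold change 0.77 ± 0.53, SE). The treated group held both the lowest and the highest mouse for Nfkb1 and Nfkbia. Il6 was not tested, with 0 to 4 reads in any TAC library.

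The NLRP3 inflammasome list had 6 genes higher and 9 lower of 15 tested, with a median of -0.14. Nlrp3, the sensor, had 0.081, 1.07 and 0.313 CPM in TAC dantrolene hearts, against 0.311, 0.293 and 0.294 CPM in TAC control hearts (log2 fold change 0.75 ± 0.75, SE). The treated group held both the lowest and the highest mouse. Casp1, the protease that the complex activates, had 0.607, 0.252 and 1.44 CPM in TAC dantrolene hearts against 0.799, 1.70 and 4.09 CPM in TAC control hearts (log2 fold change -1.53 ± 0.70, SE). Casp8, the apoptotic caspase that also cleaves interleukin 1 beta, had 4.29, 3.47 and 3.91 CPM in TAC dantrolene hearts against 3.95, 8.02 and 8.35 CPM in TAC control hearts (log2 fold change -0.80 ± 0.35, SE). These were the only members under the unadjusted threshold, and TAC control 1 was within the treated range for both. Il1b had 0.486, 0.842 and 0.157 CPM in TAC dantrolene hearts against 0.266, 0.346 and 0.647 CPM in TAC control hearts. The adaptor Pycard was high in mouse 1 of both groups, at 63.8, 12.0 and 11.2 CPM in TAC dantrolene hearts against 50.0, 13.2 and 11.6 CPM in TAC control hearts. Il18 had 2.06, 0.126 and 0.282 CPM in TAC dantrolene hearts against 0.533, 0.213 and 0.411 CPM in TAC control hearts, and the pore protein Gsdmd had 11.6, 10.2 and 7.36 CPM in TAC dantrolene hearts against 10.1, 9.72 and 12.3 CPM in TAC control hearts.

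Among the calcium-handling genes, the RNA of the drug's own target was not under the unadjusted threshold. Ryr2 had 180, 309 and 367 CPM in TAC dantrolene hearts, against 154, 213 and 225 CPM in TAC control hearts, with a log2 fold change of 0.53 ± 0.38 (SE). In every pair the treated mouse was the higher one, and the groups overlapped through mouse 1. Per length, Ryr2 was the main receptor: the deposited FPKM levels were 5.61 to 20.9 for Ryr2, 0.08 to 0.28 for Ryr1 and 0.01 to 0.04 for Ryr3 over the 6 hearts. The 15 genes of the release complex had 0 members under the unadjusted threshold and a median of -0.02. Casq2, the calcium buffer beside the channel, had 358, 655 and 650 CPM in TAC dantrolene hearts against 328, 486 and 639 CPM in TAC control hearts.

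Reuptake and extrusion genes had 7 of 9 members higher and 2 under the unadjusted threshold, Atp2a1 and Slc8a1. Slc8a1, the sodium-calcium exchanger that removes calcium from the cell, had 7.13, 30.6 and 25.5 CPM in TAC dantrolene hearts, against 7.02, 8.60 and 11.1 CPM in TAC control hearts (log2 fold change 1.24 ± 0.51, SE). Atp2a2, the pump that refills the reticulum in heart, had 3108, 8152 and 10434 CPM in TAC dantrolene hearts against 2569, 4966 and 4996 CPM in TAC control hearts (log2 fold change 0.79 ± 0.50, SE), and without the 4 libraries its log2 fold change was 0.91 with an adjusted p of 0.0453. Its inhibitor Pln had 2180, 818 and 2818 CPM in TAC dantrolene hearts against 1679, 1886 and 2524 CPM in TAC control hearts. For Slc8a1 and Atp2a2 mice 2 and 3 of the treated group were above all controls, and for Pln the groups were interleaved.

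Ion channel genes were mostly higher. Of 17 potassium channel genes 16 were higher in TAC dantrolene hearts, against 51.8% of all genes, with a median of 0.47. At an unadjusted p under 0.05, 5 were higher, against 1.78% of all genes. Kcnj11, the pore of the ATP-sensitive channel, had 32.3, 48.9 and 42.1 CPM in TAC dantrolene hearts, against 30.5, 23.8 and 17.0 CPM in TAC control hearts, without overlap (log2 fold change 0.79 ± 0.29, SE). Kcnq1, which carries the slow repolarising current, had 36.9, 41.0 and 43.2 CPM in TAC dantrolene hearts against 29.6, 27.3 and 20.04 CPM in TAC control hearts, also without overlap. Kcnj5, a subunit of the acetylcholine-gated channel, had 22.7, 68.9 and 60.8 CPM in TAC dantrolene hearts against 17.9, 24.1 and 23.0 CPM in TAC control hearts (log2 fold change 1.23 ± 0.47, SE). Kcnj12 and Kcnh2, which carry the inward rectifier and the rapid delayed rectifier currents, were the other 2, with log2 fold changes of 0.98 and 0.60. Without the 4 libraries 4 potassium channel genes were called higher after adjustment, against 1.65% of all genes.

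All 5 pore subunits of voltage-gated calcium channels were higher, by 0.18 to 0.82 on the log2 scale. Pairs 2 and 3 carried this, since the median log2 ratio of the pores was -0.41, 0.81 and 0.84 in pairs 1, 2 and 3. Cacna1s, the pore known from skeletal muscle, had 8.71, 12.7 and 12.7 CPM in TAC dantrolene hearts, against 6.71, 7.40 and 7.02 CPM in TAC control hearts, without overlap (log2 fold change 0.69 ± 0.24, SE). Cacna1c, the main pore of the L-type current in heart, had 31.9, 149 and 121 CPM in TAC dantrolene hearts against 42.4, 65.1 and 63.6 CPM in TAC control hearts (log2 fold change 0.82 ± 0.48, SE), with mouse 1 low in both groups. The 8 auxiliary subunits tested were evenly split, with 4 higher and 4 lower, and log2 fold changes of -1.99 to 2.02. The groups did not overlap in 1 of the lower ones. Apart from Cacng6, the auxiliary subunits had no member under the unadjusted threshold.

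Genes of the TCA cycle, amino acid breakdown and beta-oxidation were mostly higher, and those of the respiratory chain mostly lower. Of 38 genes of the TCA cycle and of branched-chain amino acid breakdown 34 were higher, by a median of 0.23, with 2 under the unadjusted threshold. Ivd, which oxidises a product of leucine, had 312, 424 and 359 CPM in TAC dantrolene hearts, against 289, 195 and 187 CPM in TAC control hearts, without overlap (log2 fold change 0.70 ± 0.28, SE). Mccc2, a leucine-pathway carboxylase subunit, had 44.5, 60.0 and 64.3 CPM in TAC dantrolene hearts against 40.5, 41.6 and 40.2 CPM in TAC control hearts (log2 fold change 0.46 ± 0.21, SE). In fatty acid beta-oxidation 13 of 14 enzymes were higher, by a median of 0.22, with 0 under that threshold. Fatty acid uptake and the carnitine shuttle had 4 of 9 genes higher and a median of -0.29, and Cpt2 was the 1 under it. Cpt2, which frees fatty acids from carnitine inside the mitochondrion, had 259, 315 and 256 CPM in TAC dantrolene hearts against 196, 208 and 157 CPM in TAC control hearts (log2 fold change 0.56 ± 0.25, SE).

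Regulators of these pathways had 8 of 13 genes higher, a median of 0.11 and 1 member under the unadjusted threshold. Ppargc1a, a coactivator of mitochondrial genes, had 14.5, 18.6 and 21.5 CPM in TAC dantrolene hearts, against 9.28, 9.11 and 15.9 CPM in TAC control hearts (log2 fold change 0.67 ± 0.32, SE). Its relative Ppargc1b had 1.17, 15.5 and 4.89 CPM in TAC dantrolene hearts against 2.71, 2.42 and 2.00 CPM in TAC control hearts, so treated mice lay on both sides of the controls (log2 fold change 1.60 ± 0.69, SE). Pdk4, which blocks the entry of pyruvate into the TCA cycle, had 36.6, 185 and 97.9 CPM in TAC dantrolene hearts against 39.8, 247 and 180 CPM in TAC control hearts, with every treated mouse below its pair. In glycolysis 13 of 20 genes were higher, by a median of 0.19, and Pfkfb1, a regulator of the pathway, was the 1 under the unadjusted threshold, at 13.9, 7.43 and 13.7 CPM in TAC dantrolene hearts against 8.97, 4.79 and 4.11 CPM in TAC control hearts.

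All 13 respiratory chain genes of the mitochondrial genome were lower, by a median of -1.01, with 2 under the unadjusted threshold. mt-Atp6, an ATP synthase subunit, had 267, 14.5 and 176 CPM in TAC dantrolene hearts, against 470, 440 and 823 CPM in TAC control hearts, without overlap (log2 fold change -1.92 ± 0.74, SE). mt-Co1, the most abundant, had 75168, 11667 and 108378 CPM in TAC dantrolene hearts against 100503, 120368 and 145888 CPM in TAC control hearts (log2 fold change -0.91 ± 0.62, SE). TAC dantrolene 2 was far below the other 5, and pair ratios of the list were -0.10, -4.92 and -1.12. Of the 37 nuclear genes of the same complexes 24 were lower, by a median of -0.12 (-0.59 without the 4 libraries), with 0 under the unadjusted threshold in either direction. Poly(A) selection catches mitochondrial transcripts unevenly, and the part of that step was not tested.

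Heat shock genes were mostly lower, and the lists of the unfolded protein response and of antioxidants were evenly split. Of 19 heat shock proteins and cochaperones 15 were lower, by a median of -0.37. Under the unadjusted threshold 4 were lower, against 1.47% of all genes. Dnaja1, a cochaperone of Hsp70, had 17.7, 13.8 and 25.2 CPM in TAC dantrolene hearts, against 20.6, 41.0 and 71.9 CPM in TAC control hearts (log2 fold change -1.24 ± 0.41, SE). Hspb1, a small heat shock protein, had 467, 475 and 318 CPM in TAC dantrolene hearts against 579, 927 and 567 CPM in TAC control hearts, without overlap. Hsp90aa1, the inducible Hsp90, had 11.3, 11.5 and 32.3 CPM in TAC dantrolene hearts against 16.5, 58.2 and 67.3 CPM in TAC control hearts. The unfolded protein response had 10 of 22 genes higher and 12 lower, and its 1 member under the threshold, Ddit3, was at 21.2, 11.1 and 15 CPM in TAC dantrolene hearts against 22.2, 30.3 and 23.8 CPM in TAC control hearts. Antioxidant genes had 12 higher and 12 lower. The metallothioneins Mt2 and Mt1, which bind zinc and copper, were the 2 of them under it, and Mt2 had 15.8, 22.1 and 20.9 CPM in TAC dantrolene hearts against 19.9, 90.6 and 92.1 CPM in TAC control hearts (log2 fold change -1.79 ± 0.56, SE).

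Immediate early genes, which cells switch on within minutes of a stimulus, were higher in 18 of 22, with 6 higher and 1 lower under the unadjusted threshold. The size came from 1 mouse. Nr4a3, an orphan nuclear receptor, had 1.82, 46.1 and 2.10 CPM in TAC dantrolene hearts, against 0.400, 1.12 and 1.59 CPM in TAC control hearts. Fosl2, a Fos-family factor, had 9.31, 118 and 16.7 CPM in TAC dantrolene hearts against 10.8, 13.3 and 13.1 CPM in TAC control hearts. Fosb, another Fos-family factor, was high in 2 treated mice, with 0.972, 22.1 and 6.45 CPM in TAC dantrolene hearts against 0.622, 1.07 and 1.03 CPM in TAC control hearts (log2 fold change 3.43 ± 1.01, SE). The median of the list was 0.42, and it was -0.11 without TAC dantrolene 2. The summed level of the list was 2977 CPM in TAC dantrolene 2 and 913 to 1327 CPM in the other TAC hearts. Sham hearts had 1652 to 4596 CPM, so as a list TAC dantrolene 2 lay within the sham range and the other TAC hearts below it. Single members could still stand out, and Nr4a3 in TAC dantrolene 2 exceeded every other library by 2.74 on the log2 scale. Atf3, a stress-induced factor, had 5.34, 205 and 6.39 CPM in TAC dantrolene hearts against 11.5, 15.7 and 7.70 CPM in TAC control hearts, and its log2 fold change was -0.99 without that mouse.

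TAC dantrolene 2 also set the largest difference among genes of drug metabolism. Cyp1a1, the cytochrome P450 that the aryl hydrocarbon receptor induces, had 7.05, 206 and 4.85 CPM in TAC dantrolene hearts, against 1.33, 8.15 and 3.59 CPM in TAC control hearts, while the 3 sham hearts given the drug had 2.03 to 8.19 CPM. Ces1d, a carboxylesterase, separated all mice instead, with 113, 135 and 142 CPM in TAC dantrolene hearts against 73.5, 61.4 and 53.4 CPM in TAC control hearts (log2 fold change 1.05 ± 0.32, SE). These were the only 2 of 31 genes under the unadjusted threshold, beside 3.25% of all genes, and neither was called by edgeR or DESeq2 after adjustment. In TAC dantrolene 2, 7 genes exceeded every other library of the 12 by 4-fold or more.

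**Figure D4:**
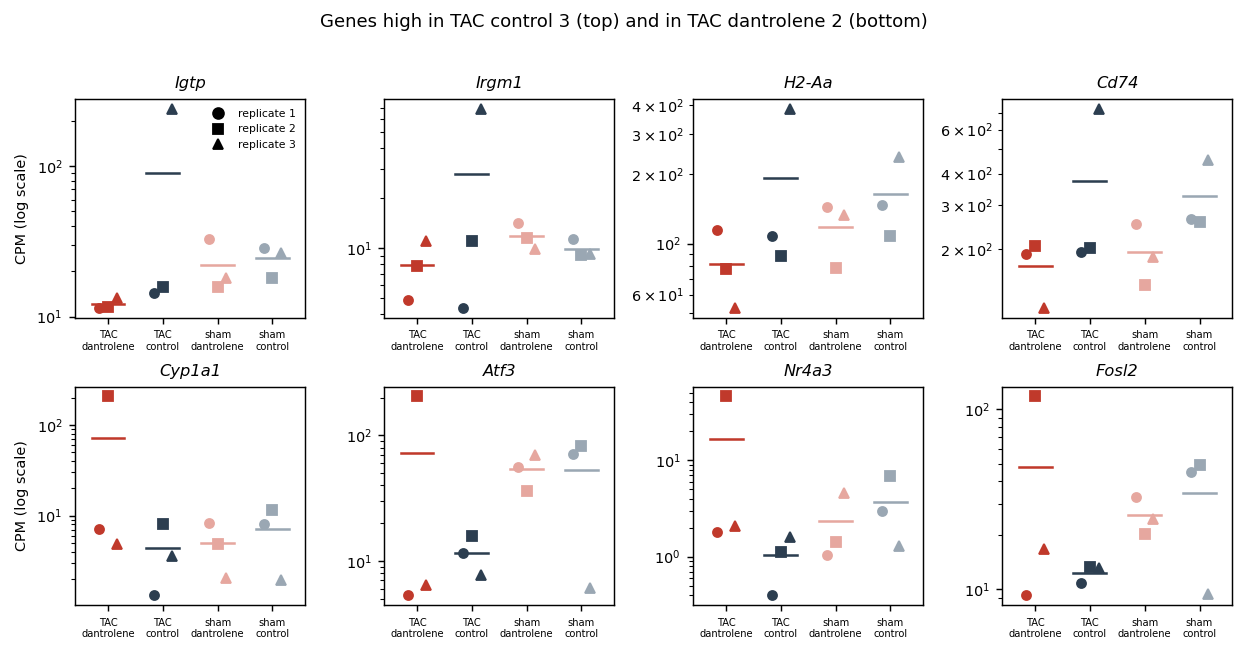
CPM per mouse on a log axis for genes whose difference rested on 1 heart, with TAC dantrolene left of TAC control and symbols for the replicate number. In the top row TAC control 3 is high, with Igtp at 240 CPM, and in the bottom row TAC dantrolene 2 is high, with Cyp1a1 at 206 CPM.

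The clock list had 1 member under the unadjusted threshold and the atrophy list 2, and 3.25% of all genes passed it. Both atrophy members were higher, against 1.78% of all genes. The atrophy list had 7 of 10 genes higher and a median log2 fold change of 0.41. Its median log2 ratio was 0.27, 0.48 and 0.48 in pairs 1, 2 and 3. Nr1d1, a repressor in the circadian clock, had 22.0, 22.3 and 48.9 CPM in TAC dantrolene hearts, against 16.9, 97.5 and 107 CPM in TAC control hearts, and it was the 1 of 19 clock genes under the unadjusted threshold (log2 fold change -1.25 ± 0.54, SE). No source used here gives the hour of sampling. The muscle ubiquitin ligases Trim55 and Trim63, which tag sarcomere proteins for breakdown, were the 2 of 10 atrophy genes under it. Trim63 had 159, 158 and 225 CPM in TAC dantrolene hearts against 106, 98.2 and 137 CPM in TAC control hearts, without overlap (log2 fold change 0.67 ± 0.31, SE). Trim55 had 17.5, 55.8 and 55.4 CPM in TAC dantrolene hearts against 20.5, 18.2 and 24.8 CPM in TAC control hearts, with treated mouse 1 below every control. Ptgds, which makes prostaglandin D2, had 574, 357 and 333 CPM in TAC dantrolene hearts against 781, 926 and 947 CPM in TAC control hearts, without overlap, while the sham hearts had 186 to 281 CPM (log2 fold change -1.07 ± 0.30, SE).

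Markers of other cell types were read as sums per heart. Red cell markers were high in TAC dantrolene 1, with 11633, 861 and 887 CPM in TAC dantrolene hearts, against 4072, 8869 and 1803 CPM in TAC control hearts. Epicardial and mesothelial markers had 17.7, 29.0 and 3.85 CPM in TAC dantrolene hearts against 37.6, 6.20 and 4.53 CPM in TAC control hearts, so both mice numbered 1 and TAC dantrolene 2 were high. Endothelial markers had a median of -0.23, smooth muscle and pericyte markers of 0.07 and cardiomyocyte markers of 0.17, each with 0 members under the unadjusted threshold. B cell, neutrophil, mast cell, adipocyte and nerve markers also had 0. Whether tissue composition contributed to any gene difference was not tested.

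Leaving out the 4 libraries that stood apart widened most of these list differences and reversed the sign of no list shown in the plot of medians. The median of interferon genes was -1.23 in place of -0.70, that of macrophage markers -0.88 in place of -0.25 and that of potassium, sodium and gap junction channels 0.74 in place of 0.43. The TNF and NF-kappaB median stayed near 0, at 0.10 in place of 0.06.

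**Figure D5:**
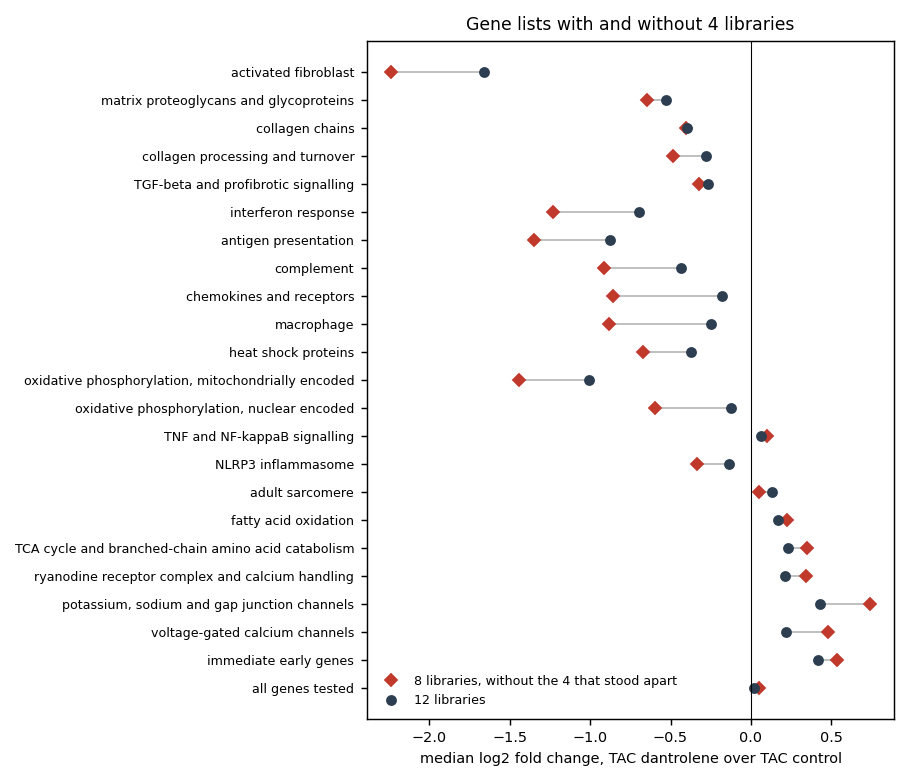
Median log2 fold change of TAC dantrolene over TAC control for 22 gene lists and all genes tested, with 12 libraries (circles) and with the 8 left without the 4 that stood apart (diamonds). The activated fibroblast median is -1.66 with 12 libraries and -2.24 with 8, and the median of all genes is 0.02 and 0.05.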

How the data were processed

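Poly(A) RNA of the left ventricle was made into directional libraries and sequenced as paired reads, per the labels' protocols. Per the submitters' processing notes the tools were bcl2fastq, TopHat2 and edgeR and the build GRCm38, without versions or roles. No source used here names the counting tool, its annotation or its strand setting. Counts per gene as deposited by the authors are whole reads without normalisation. Their FPKM values, deposited for 25258 genes, are scaled by length and library size. R 4.3.3 and edgeR 4.0.16 were used for the test of the counts. The filter on low counts (filterByExpr, at least 10 reads, 15 in total) removed 0.0418% of reads. TMM scaling and a single robust quasi-likelihood fit of 4 group means over all 12 libraries followed, with 8 residual degrees of freedom, a common biological coefficient of variation of 0.443, two-sided tests and Benjamini-Hochberg adjustment at 0.05. DESeq2 1.42.0 and limma 3.58.1 (voom with sample quality weights) were alternatives. CPM are scaled counts, and only FPKM was used to compare levels between genes.

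Samples were grouped by title. Replicate numbers are in the titles, which state no pairing. Deviations from the group means correlated at 0.56, 0.30 and 0.61 in the 3 same-numbered TAC pairs. Between unlike numbers the correlations were -0.56 to 0.22, the highest for TAC dantrolene 3 with TAC control 2. The numbers were taken to pair the mice on these values alone. No pair of TAC libraries in a group agreed within counting noise. The fit was tested on simulated counts. Of 804 genes in 29 pathway and 16 marker lists, 803 were in the table and 772 were tested. The lists and the comparison were chosen with earlier results of these data known, so no list has a test. The text names genes called by DESeq2, the 15 leading genes by p on either side, a set of 36 index genes fixed by hand, and from each described list at most 6 genes with the smallest p. A few genes that this rule names are not reported here. Gene coordinates are from GENCODE vM21 on GRCm38 and promoters from RefSeq on GRCm38.p6.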

Additional observations from a re-analysis of the deposited data

How the results depend on the processing

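The count of genes called was 0, and it was 11 with DESeq2, 123 with limma and sample weights, 1 without a filter on low counts, 478 without the 4 libraries that stood apart and 0 to 1 when 1 TAC library was left out (1, Acta1, without TAC control 1). It was 0 with the replicate block, in the 6 TAC libraries or within each surgery arm, and the block changed no other adjusted call. The count at an unadjusted p under 0.05 was 486, and it was 2859 with limma, 178 in the 6 TAC libraries alone, 979 and 1826 with the replicate block, 3377 without the 4 libraries and 285 (without TAC dantrolene 2) to 2284 (without TAC dantrolene 1) when 1 library was left out. It was 1299 without TAC control 1 and 295 without TAC control 2. The 266 higher and 220 lower genes became 218 and 271 with RLE scaling and 204 and 276 with mitochondrially encoded genes left out, and the non-overlapping 401 and 311 became 342 and 350, and 327 and 350.

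List medians moved by more than the typical standard error of their members in few settings. Without the 4 libraries they were -2.24 for activated fibroblasts, -0.86 for chemokines, 2.00 for epicardium, -0.88 for macrophages, -0.59 for nuclear respiratory genes, -2.56 for red cells and -0.64 for skeletal muscle. With limma they were 2.48 for adipocytes, -2.59 for mitochondrially encoded genes and -2.62 for red cells, and the stricter filter gave -0.75 for atrial myocytes. With 1 TAC library left out the medians ranged from -1.19 to -0.25 for antigen presentation, -0.36 to 0.12 for antioxidants, -1.01 to 0.81 for atrial myocytes, -0.97 to 0.093 for B cells, -0.52 to 0.30 for the clock, -0.40 to 2.07 for epicardium, -0.58 to 0.30 for mast cells, -0.78 to 1.08 for neutrophils, -0.80 to 0.15 for nuclear respiratory genes, -2.57 to 0.72 for red cells, -0.63 to 0.13 for skeletal muscle and -1.78 to -0.76 for T and NK cells. The cause was not tested.

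Of 2206 values of 139 named genes under alternatives, 41 changed sign, in 20 genes, none of them called. Myh7 had a log2 fold change of 0.04, and it was -0.0042 with RLE, -0.0045 with DESeq2, -0.0096 in the 6 TAC libraries, -0.013 without mitochondrial genes, and -0.35 and -0.31 with the block. Ryr1 was 0.81 with limma, 0.15 and 0.19 with the block and 0.87 without the 4 libraries. Without the 4, Pycard was -0.098 and Il18 -0.63, and Il18 was -0.12 with limma. With 1 TAC library left out the log2 fold change ranged from -2.33 to 0.029 for Irgm1, -4.07 to 0.76 for Iigp1, -3.21 to 0.084 for mt-Co3, -0.99 to 3.18 for Atf3, -0.094 to 2.69 for Nr4a2, -0.71 to 1.56 for Cdkn1a, -1.45 to 0.19 for Nppb, -0.9995 to 0.73 for Myh7, -0.43 to 0.98 for Ryr1, -0.44 to 0.30 for Pln, -0.021 to 0.45 for Casq2, -0.51 to 0.082 for Tnf, -0.43 to 0.70 for Il1b, -0.10 to 1.19 for Nfkbia, -0.092 to 0.32 for Rela, -0.55 to 1.20 for Nlrp3, -1.12 to 1.22 for Pycard, -0.31 to 0.027 for Gsdmd, -0.94 to 1.60 for Il18 and -1.49 to 0.10 for Irf7. Low counts limit the precision of weakly expressed genes, and the standard error of the log2 fold change was 0.75 for Nlrp3 and 0.70 for Tnf.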
